A study of Mus musculus with 114 samples.

Results

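Integrins are receptors in the plasma membrane that hold a cell to its surrounding matrix. Each is a pair of 1 alpha and 1 beta chain, and the pairing sets the ligand, whereas the tails inside the cell join actin through talin, kindlin and other adaptor proteins. In fat tissue every adipocyte lies in a basement membrane rich in laminin and collagen. The 10 subunit genes described here are those whose products bind matrix, namely Itga1, Itga3, Itga5, Itga6, Itga7, Itga9, Itgav, Itgb1, Itgb3 and Itgb5. They were chosen by symbol from the 29132 genes of the table, and all 10 were found in it.

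RNA-seq was performed by the authors on adipocytes of the perigonadal fat pad of 38 male C57BL/6J mice, taken as the cells that float after collagenase digestion and centrifugation. From 6 weeks of age the mice ate chow as the control diet (CD) or were fed a high fat diet (HFD), and they were fasted before sampling. There were 6 CD and 6 HFD mice at 8 weeks on diet, 6 and 6 at 20 weeks, and 8 and 6 at 34 weeks. The groups differed in diet and in time on it, and carried no transgene and no drug. No sort followed the flotation, so RNA of other cells that floated or stuck to adipocytes is part of each value, and fewer cells of a type cannot be told apart from less RNA per cell.

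Values are CPM, the reads of a gene scaled to 1000000 reads on genes, from 9275711 to 15480388 reads per mouse. Differences between groups are log2 fold changes of log2(CPM + 1) from limma, with the standard error (SE) and a p adjusted by Benjamini-Hochberg over the 10343 genes tested, and a gene was called at an adjusted p under 0.05. The added 1 makes the fold change of a low gene smaller than the ratio of its CPM. Of the 10 subunits, 9 passed the filter on low values. Itgb3 lay under it and was fitted without a filter, over 21166 genes.

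The labelled cell type was checked against its markers. The summed CPM of 9 adipocyte markers, among them Adipoq and Plin1, ranged from 15939 to 46159 over the 38 mice, whereas 11 macrophage markers together ranged from 451 to 15474. In the HFD mice the macrophage sum had a median of 1901, 6479 and 10496 at 8, 20 and 34 weeks, against 725, 1696 and 3522 in CD mice. Defining T cell and Schwann cell markers were at or near 0, with Cd3g at 0 in 31 and Sox10 at 0 in 37 of the 38 mice. 2 CD mice stood apart from their groups. CD mouse 1 at 20 weeks had a macrophage sum of 3440, with 1874 in the next, and CD mouse 5 at 34 weeks had 12721, with 7898 in the next. Some results are also given without 1 of these mice, whereas the correlations and shares below include both.

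The genes lie on 8 chromosomes of GRCm38, and reads were counted over their exons, UTRs included. Itgb1 spans chr8:128685654-128733200, Itgb5 chr16:33829665-33949338 and Itgb3 chr11:104608000-104670476. The fibronectin receptor gene Itga5 lies at chr15:103344286-103366763 and Itgav at chr2:83724397-83806916. The laminin receptor genes are Itga3 at chr11:95044474-95076801, Itga6 at chr2:71745616-71858416 and Itga7 at chr10:128933818-128958282. Itga1, a collagen receptor gene, lies at chr13:114953096-115101964, and Itga9 at chr9:118606690-118901003.

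Itga5 and Itgav were the 2 subunits most alike over the 38 mice, and Itgb1 was the most abundant, so the sequence before the start of each is shown. Each run is the 250 bases upstream of the RefSeq start on GRCm38.p6, read 5′ to 3′ on the strand of the gene. Itga5 is at chr15:103366792-103367041 on the minus strand, Itgav at chr2:83724147-83724396 and Itgb1 at chr8:128685404-128685653 on the plus strand. Capitals mark matches on either strand to the SP1 motif GGGCGG or the TEAD motif GGAATG.
Itga5: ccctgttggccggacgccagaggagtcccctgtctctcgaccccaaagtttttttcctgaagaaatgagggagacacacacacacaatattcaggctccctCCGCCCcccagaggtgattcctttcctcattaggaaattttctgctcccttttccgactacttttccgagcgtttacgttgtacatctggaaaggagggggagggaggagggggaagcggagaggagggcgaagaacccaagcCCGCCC
Itgav: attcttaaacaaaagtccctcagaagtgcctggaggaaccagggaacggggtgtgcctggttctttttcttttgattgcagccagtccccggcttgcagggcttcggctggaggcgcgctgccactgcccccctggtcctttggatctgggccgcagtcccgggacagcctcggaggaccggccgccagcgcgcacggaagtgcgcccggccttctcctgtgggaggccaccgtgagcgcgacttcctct
Itgb1: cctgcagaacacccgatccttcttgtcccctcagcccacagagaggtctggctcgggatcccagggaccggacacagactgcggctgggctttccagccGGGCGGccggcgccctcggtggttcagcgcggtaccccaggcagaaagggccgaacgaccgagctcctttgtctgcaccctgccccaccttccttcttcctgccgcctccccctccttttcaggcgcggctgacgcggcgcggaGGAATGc

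Itga5 had 2 SP1 matches, Itgb1 had 1 SP1 and 1 TEAD match, and Itgav had neither. Among 32851 mouse windows of the same length, 32.7% held the SP1 and 12.6% the TEAD motif. The AP-1 motif TGANTCA (6.75% of windows) and the CArG box, the site of serum response factor (1.47%), were also searched, without a match in the 8 windows of the 7 subunit genes that had one. No match says only that these letters are not in the windows.

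Compared per kilobase of exon, Itgb1 was the most abundant subunit in each of the 6 groups, at 79.6 ± 5.83 CPM per kb in the CD group and 136 ± 22 in the HFD group at 8 weeks (SD, n = 6 each). Itgb1 encodes the beta chain shared by most of the alpha chains measured here. Itgb5, the beta chain that pairs with the product of Itgav, followed at 44.5 ± 8.96 and 68.5 ± 5.02 CPM per kb. Itgb3, another beta partner of Itgav and a chain of the platelet fibrinogen receptor, was last in every group, at 0.0426 ± 0.0193 and 0.186 ± 0.0852. Among the 3 beta genes Itgb1 made up 64.4% ± 3.78 of the summed level in CD and 66.1% ± 4.2 in HFD mice at 8 weeks, 69.1% ± 2.54 and 71.3% ± 2.02 at 20 weeks, and 64.5% ± 3.11 and 66.2% ± 2.83 at 34 weeks (n = 8 CD and 6 HFD at 34 weeks). The diets differed in these shares by less than the larger SD at 8 and 34 weeks, and also at 20 weeks. Itgb3 stayed at or under 0.543% in every mouse.

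The make-up of the alpha chains differed more between groups. Itga7, a laminin receptor gene best known from muscle, held 57.8% ± 4.99 of the summed per-length level of the 7 alpha genes in CD and 50.4% ± 2.7 in HFD mice at 8 weeks. At 20 weeks its share was 52.6% ± 5.58 in CD and 23.6% ± 3.68 in HFD mice, while that of Itga5 was 21.1% ± 6.58 and 50.2% ± 2.06. In the HFD mice at 20 weeks the order of these 2 genes was thus the reverse of that in the other groups. At 34 weeks Itga7 held 49.9% ± 10.9 and 40% ± 16.4, and Itga5 13.1% ± 11.5 and 27.4% ± 14, so that the diets lay within 1 SD for Itga7. Itgav rose from 5.68% ± 0.808 in CD to 11.2% ± 2.1 in HFD mice at 20 weeks, as a share, and was at 4.62% ± 0.311 and 4.34% ± 0.537 at 8 weeks. Itga6 held 22.6% ± 3.62 and 28% ± 2.34 at 8 weeks, 17.3% ± 3.69 and 11% ± 1.34 at 20 weeks, and 28.9% ± 8.18 and 19.7% ± 0.957 at 34 weeks. Shares are descriptions with no test. With the coding length in place of the exon length, Itga5 was again first in the HFD mice at 20 weeks, at 36.7% against 24.6% for Itga7.

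**Figure D1:**
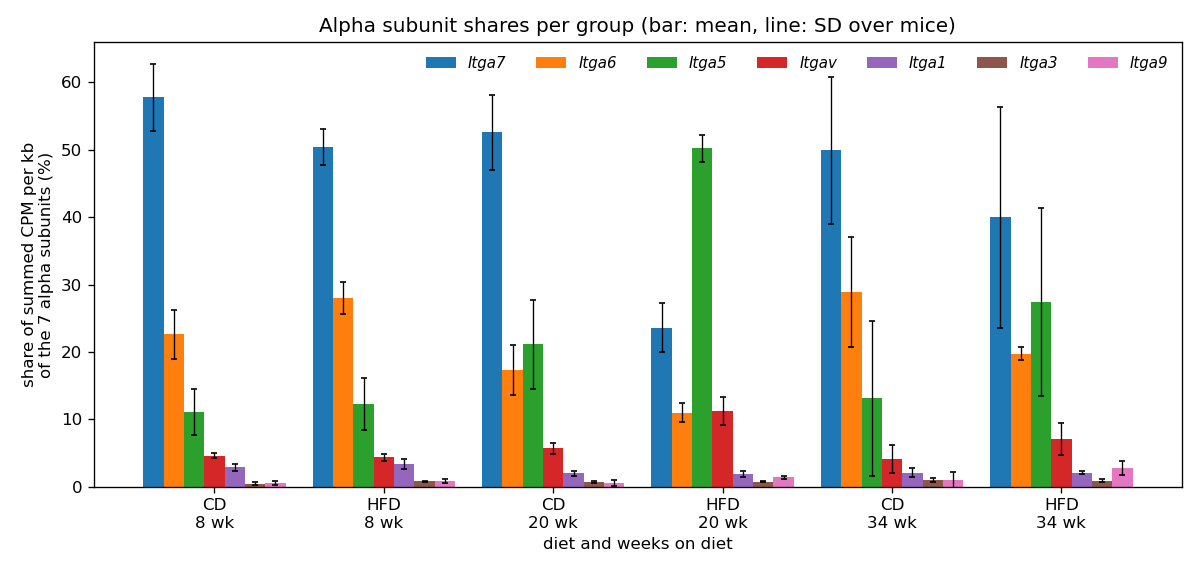
Share of each alpha subunit gene in the summed CPM per kilobase of exon of the 7 alpha genes (y axis, percent) in the 6 groups of diet and weeks on diet (x axis). Bars are means and lines the SD over 6 mice (8 in CD at 34 weeks), and Itga5 is the tallest bar only in the HFD mice at 20 weeks, at 50.2%.

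The first question was how adipocytes respond to HFD at each time. In the limma fit of all 6 groups on the CPM as deposited, 6 of the 9 subunits tested were called higher with HFD at 8 weeks. At 20 weeks 7 and at 34 weeks 5 were called higher. In that fit 0 were called lower at each time, and 0 were lower at an unadjusted p under 0.05. With other scalings, and with 20 weeks fitted alone, Itga7 was called lower at 20 weeks. With TMM factors Itga1 lost its call there. Over all genes tested 29.8%, 38.3% and 27.5% were called higher and 15.1%, 18.7% and 15.7% lower at 8, 20 and 34 weeks. The median log2 fold change of the 9 subunits was 0.65, 0.86 and 0.50, and that of all genes 0.11, 0.14 and 0.07. With TMM factors the median of all genes moved to 0.01, -0.07 and -0.01, and relative to it the median of the 9 subunits was 0.54, 0.72 and 0.42, against 0.54, 0.72 and 0.43 with the CPM as deposited. A scaling factor moves nearly all genes of a mouse alike, so this near equality was fixed in advance and is no check of the result. TMM also moved the split of calls over all genes, from 3083 higher and 1565 lower to 2339 and 2212 at 8 weeks, from 3957 and 1937 to 2718 and 3356 at 20 weeks, and from 2840 and 1628 to 2320 and 2149 at 34 weeks. Median-of-ratios factors gave 2273 and 2312, 2947 and 3011, and 2290 and 2218.

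The HFD mice lay above the CD mice without overlap for 5 of the 10 subunits at 8 weeks, for 6 at 20 weeks and for 0 at 34 weeks. The same held for 15.7%, 26.1% and 1.47% of all 10343 genes tested, which do not include Itgb3. For Itgb3 at 8 weeks the highest CD mouse had 4 reads and the lowest HFD mouse 5. At 8 weeks the 5 were Itga1, Itga3, Itgb1, Itgb3 and Itgb5, and at 20 weeks the 6 were Itga3, Itga5, Itgav, Itgb1, Itgb3 and Itgb5. Without CD mouse 5 the count at 34 weeks was 3 (Itga9, Itgb1 and Itgb3). Without CD mouse 1 Itga9 joined those at 20 weeks. The shares of all genes are for all mice, so the counts without a mouse cannot be set against them.

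**Figure D2:**
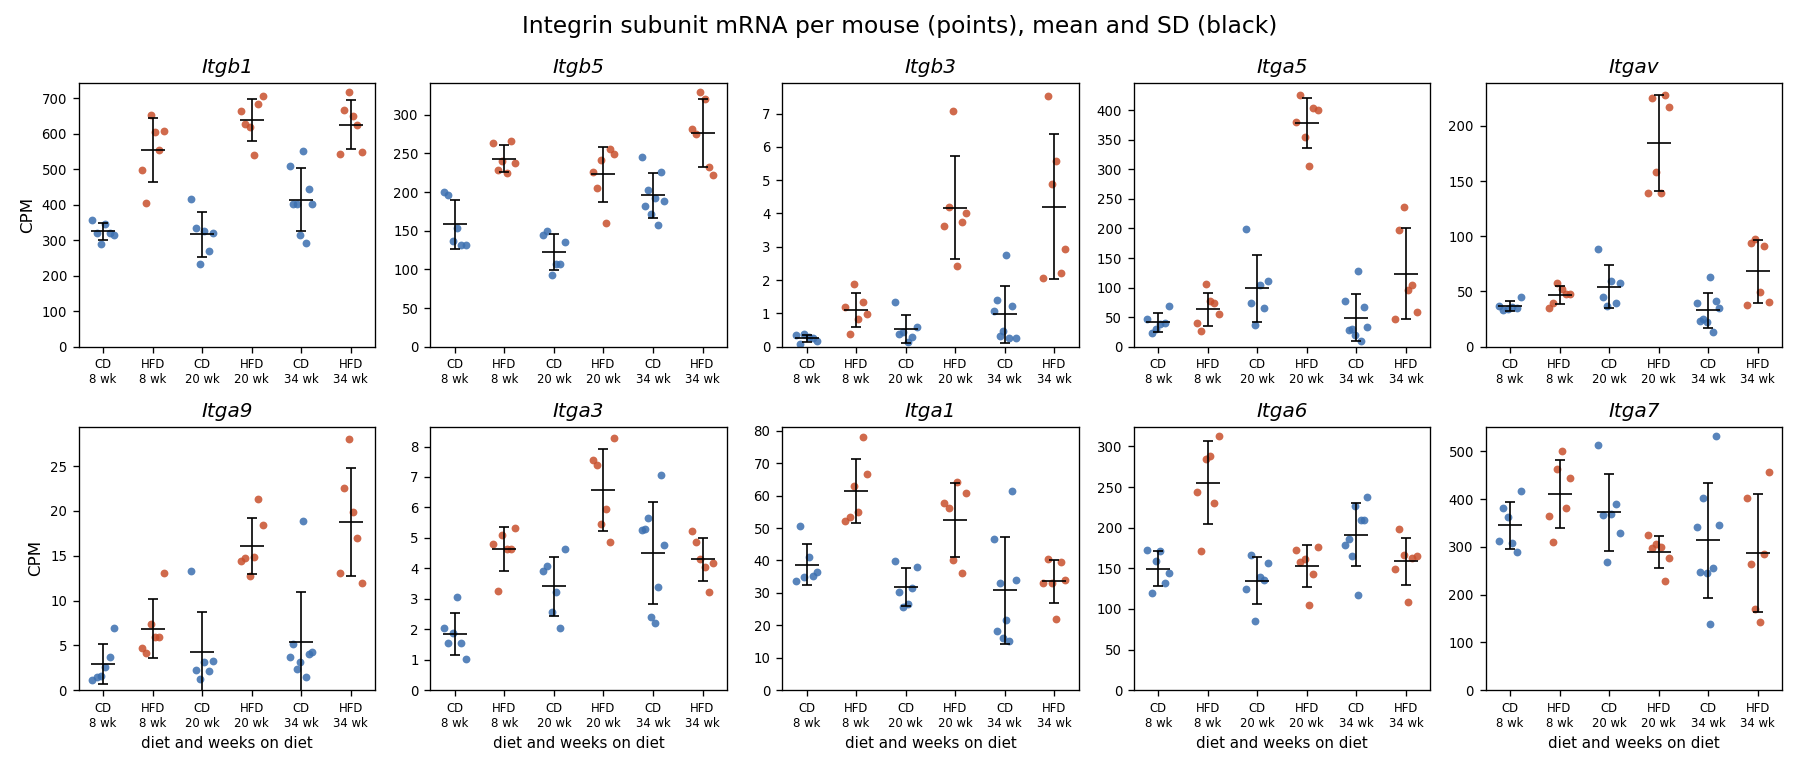
CPM of each of the 10 integrin subunit genes (y axis, linear, a panel per gene) in every mouse, by diet and weeks on diet (x axis). Points are mice (CD blue, HFD red), black lines the mean and SD with n = 6 per group and 8 in CD at 34 weeks, and axes start at 0. For Itga5 the 6 HFD mice at 20 weeks lie between 306 and 425, above all other mice.

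Among the beta chains, Itgb1 and Itgb5 were called higher with HFD at each of the 3 times. The CPM of Itgb1 had a lowest, median and highest value of 289, 321 and 356 in CD mice against 406, 579 and 653 with HFD at 8 weeks. At 20 weeks these were 232, 324 and 416 in CD mice against 539, 646 and 706 with HFD, and at 34 weeks 291, 402 and 552 against 544, 637 and 718. The groups did not overlap at 8 or 20 weeks, and at 34 weeks CD mouse 5, at 552, lay above the lowest HFD mice. The log2 fold change was 0.75 (SE 0.13, limma adjusted p = 4.91e-05) at 8 weeks, 1.03 (SE 0.13, adjusted p = 1.88e-07) at 20 weeks and 0.61 (SE 0.12, adjusted p = 0.000305) at 34 weeks. Over the alternatives with all mice it went as low as 0.52, 0.70 and 0.35. The highest adjusted p among them was 0.00046, 4.09e-05 and 0.0297. In the order of its 6 group means the 3 HFD groups came first, and neighbours differed by more than the larger SD only between HFD at 8 weeks and CD at 34 weeks and between CD at 34 and at 8 weeks.

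Itgb5 encodes the beta chain that binds vitronectin together with the product of Itgav. Its CPM had a lowest, median and highest value of 131, 145 and 200 in CD mice against 225, 239 and 266 with HFD at 8 weeks. At 20 weeks these were 92.5, 121 and 150 against 160, 234 and 256, and at 34 weeks 157, 190 and 246 against 222, 278 and 329. The diets were apart at 8 and 20 weeks and overlapped at 34 weeks, where 4 of 6 HFD mice lay above every CD mouse. HFD against CD gave a log2 fold change of 0.64 (SE 0.13, limma adjusted p = 0.000329), 0.86 (SE 0.13, adjusted p = 2.33e-06) and 0.50 (SE 0.12, adjusted p = 0.00205). Over the alternatives with all mice it went as low as 0.51, 0.65 and 0.41. The highest adjusted p among them was 0.00207, 0.000236 and 0.0387.

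Itgb3 was found at few reads, from 1 to 4 per mouse in CD and 5 to 29 in HFD mice at 8 weeks. The lowest, median and highest CPM were 0.0815, 0.268 and 0.379 in CD mice against 0.379, 1.09 and 1.87 with HFD, and the highest CD and the lowest HFD mouse, with 4 and 5 reads, were equal to 3 digits. At 20 weeks the values were 0.153, 0.41 and 1.33 against 2.41, 3.88 and 7.07, and at 34 weeks 0.247, 0.776 and 2.74 against 2.05, 3.91 and 7.54. The HFD mice thus lay apart from CD mice at 20 weeks, with 34 to 93 reads each. In the fit without a filter the log2 fold change was 0.72 (SE 0.25, limma adjusted p = 0.0324), 1.75 (SE 0.25, adjusted p = 1.49e-06) and 1.40 (SE 0.23, adjusted p = 6.85e-05), where 16.0%, 24.5% and 16.7% of the 21166 genes were called higher. Those fold changes understate the ratio of CPM, since most values lie near the added 1. Of 7 platelet markers, cells known for Itgb3, 1 was tested, Pf4, and was called higher at 20 and 34 weeks, whereas the other 6 were low: Gp6, Gp9 and Gp1ba were at 0 in 35, 32 and 31 of 38 mice, and Gp1bb, Treml1 and Ppbp at 0 in 15, 13 and 6, with Treml1 at 1 CPM or more in 6 mice and none of the others so in any. Their summed CPM, nearly all of it from Pf4, ranged from 4.08 to 24.5 in CD and 13.4 to 35.2 in HFD mice at 8 weeks, from 8.02 to 45.1 and 41.4 to 75.6 at 20 weeks, and from 20.3 to 163 and 53.9 to 186 at 34 weeks.

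Of the alpha chains that bind RGD ligands, Itga5 and Itgav were called higher in HFD mice at 20 and 34 weeks but not at 8 weeks. Itga5 pairs with Itgb1 to form the main fibronectin receptor. Its CPM had a lowest, median and highest value of 22.7, 39 and 68.8 in CD mice against 27, 64.6 and 106 with HFD at 8 weeks. These became 36.2, 89.1 and 199 against 306, 390 and 425 at 20 weeks, and 10.3, 31.5 and 128 against 46.6, 101 and 236 at 34 weeks. The diets overlapped at 8 and 34 weeks and were apart at 20 weeks, where the highest CD value, 199, was that of CD mouse 1. In limma the log2 fold change was 0.56 (SE 0.45, limma adjusted p = 0.307, 95% interval -0.34 to 1.47) at 8 weeks, 2.11 (SE 0.45, adjusted p = 0.000154) at 20 weeks and 1.45 (SE 0.42, adjusted p = 0.00567) at 34 weeks. With the macrophage marker mean of each mouse as a covariate it was 0.87 (adjusted p = 0.0601) at 20 and 0.47 (adjusted p = 0.368) at 34 weeks, with 5.97e-05 to 0.0601 and 0.00469 to 0.368 as the spans of its adjusted p in the alternatives. With 34 weeks fitted alone it was not called either (adjusted p = 0.0542).

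Itgav encodes the alpha chain that pairs with Itgb1, Itgb3 and Itgb5 and that releases active TGF-beta from its latent complex. Its CPM had a lowest, median and highest value of 32.9, 35.5 and 45.1 in CD mice against 35.1, 47.8 and 58 with HFD at 8 weeks. The values were 37.2, 51 and 88.7 against 139, 188 and 228 at 20 weeks, and 13.7, 29.9 and 63.4 against 38.1, 70.4 and 97.6 at 34 weeks. As for Itga5, the HFD mice at 20 weeks stood above all other mice. The log2 fold change was 0.33 (SE 0.26, limma adjusted p = 0.307), 1.77 (SE 0.26, adjusted p = 1.46e-06) and 1.05 (SE 0.25, adjusted p = 0.00121). With the macrophage covariate Itgav was called at 20 weeks, at 1.12 (adjusted p = 0.000524), and not at 34 weeks, at 0.53 (adjusted p = 0.101, with a range of 0.000358 to 0.101 over all alternatives).

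Itga9 pairs with Itgb1 and binds tenascin-C and osteopontin. Its CPM had a lowest, median and highest value of 1.15, 2.1 and 6.98 in CD mice against 4.17, 5.92 and 13.1 with HFD at 8 weeks. At 20 weeks these were 1.25, 2.7 and 13.3 against 12.7, 14.8 and 21.3, and at 34 weeks 1.52, 3.9 and 18.9 against 12, 18.4 and 28. The overlap at 20 and 34 weeks came from a single CD mouse each time, mouse 1 and mouse 5, and without them the highest CD value was 3.28 and 5.17. HFD against CD gave a log2 fold change of 1.08 (SE 0.38, limma adjusted p = 0.0201), 1.99 (SE 0.38, adjusted p = 4.29e-05) and 1.86 (SE 0.35, adjusted p = 0.000177). At 8 weeks the call was lost without CD mouse 1 (0.94, adjusted p = 0.0539) or HFD mouse 6 (0.90, adjusted p = 0.0658), with edgeR (adjusted p = 0.0632) and with the macrophage covariate (0.20, adjusted p = 0.425), in a range of 0.014 to 0.425 over the alternatives that used all mice. At 20 and 34 weeks the covariate left 0.71 (adjusted p = 0.00946) and 0.84 (adjusted p = 0.004).

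The 3 laminin receptor genes differed from each other. Itga3 had a lowest, median and highest CPM of 1.03, 1.72 and 3.06 in CD mice against 3.26, 4.73 and 5.31 with HFD at 8 weeks. At 20 weeks the values were 2.05, 3.56 and 4.62 against 4.87, 6.67 and 8.29, and at 34 weeks 2.22, 5.01 and 7.06 against 3.21, 4.23 and 5.23. The diets were apart at the first 2 times, and at 34 weeks the HFD mice lay within the range of the CD mice. In limma the log2 fold change was 1.00 (SE 0.19, limma adjusted p = 0.000113), 0.80 (SE 0.19, adjusted p = 0.00063) and 0.00 (SE 0.18, adjusted p = 0.998, 95% interval -0.36 to 0.36).

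Itga6, which also pairs with the hemidesmosome chain Itgb4, had a lowest, median and highest CPM of 120, 152 and 172 in CD mice against 171, 264 and 313 with HFD at 8 weeks. At 20 weeks it had 85, 137 and 167 against 105, 160 and 176, and at 34 weeks 117, 197 and 238 against 109, 164 and 198. Only at 8 weeks was it called, with 1 HFD mouse inside the CD range. The log2 fold change was 0.75 (SE 0.17, limma adjusted p = 0.000641), 0.19 (SE 0.17, adjusted p = 0.335) and -0.27 (SE 0.16, adjusted p = 0.167). At 34 weeks edgeR and DESeq2 called it lower, at -0.38 with each (adjusted p = 0.0406 and 0.0345), and the range over the alternatives was 0.0345 to 0.425. Without CD mouse 5 limma called it lower too, at -0.36 (adjusted p = 0.0413).

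Itga7 was not called in response to HFD at any time. It had a lowest, median and highest CPM of 289, 338 and 416 in CD mice against 311, 413 and 500 with HFD at 8 weeks, 268, 368 and 513 against 228, 298 and 325 at 20 weeks, and 139, 298 and 532 against 143, 275 and 456 at 34 weeks. At 20 weeks the 6 HFD mice lay under the CD mean, the lowest of them under every CD mouse, and the diets overlapped. HFD against CD gave a log2 fold change of 0.24 (SE 0.24, limma adjusted p = 0.409), -0.35 (SE 0.24, adjusted p = 0.21) and -0.15 (SE 0.22, adjusted p = 0.594). The call at 20 weeks depended on the scaling: with TMM, median-of-ratios factors, edgeR and DESeq2 it was called lower, at -0.56, -0.52, -0.55 and -0.52 (adjusted p = 0.0359, 0.0498, 0.0354 and 0.0374), as it was with that time fitted alone (-0.35, adjusted p = 0.0383), and the range over all alternatives was 0.0354 to 0.839. No 2 neighbours in the order of its 6 group means differed by more than the larger SD.

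Itga1 pairs with Itgb1 as a receptor for collagen IV and other collagens. Its CPM had a lowest, median and highest value of 33.8, 35.9 and 50.6 in CD mice against 52.3, 59 and 78.1 with HFD at 8 weeks. At 20 weeks these were 25.5, 30.8 and 39.7 against 36.2, 56.9 and 64.1, and at 34 weeks 15.1, 27.4 and 61.4 against 21.8, 33.6 and 40.4. All HFD mice were above the CD mice at 8 weeks, 5 of 6 were at 20 weeks, and none was at 34 weeks. In limma the log2 fold change was 0.65 (SE 0.23, limma adjusted p = 0.0214), 0.69 (SE 0.23, adjusted p = 0.011) and 0.26 (SE 0.22, adjusted p = 0.335). With TMM factors the call at 20 weeks was lost (0.48, adjusted p = 0.0547, range 0.00195 to 0.0547).

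**Figure D3:**
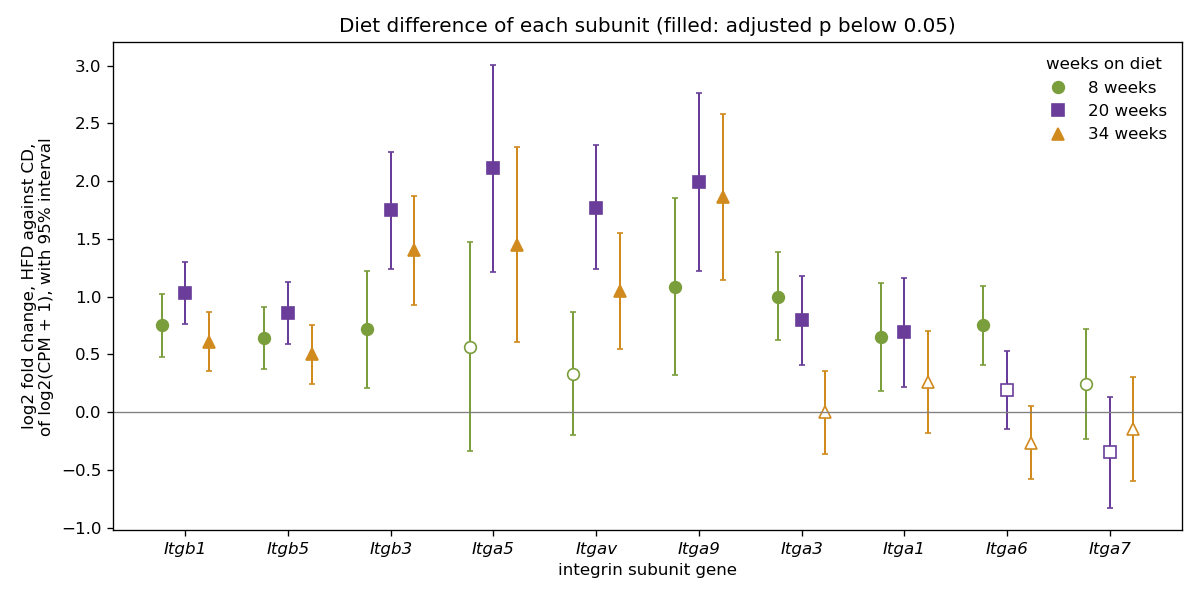
Log2 fold change of HFD against CD mice, of log2(CPM + 1), with its 95% interval from limma (y axis) for each subunit gene (x axis) at 8 (circles), 20 (squares) and 34 weeks (triangles). Filled symbols have an adjusted p under 0.05, Itgb3 is from the fit without a filter, and the values run from -0.35 (Itga7) to 2.11 (Itga5), both at 20 weeks.

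Whether the diet difference itself changed with time was tested by interaction terms. From 8 to 20 weeks 1 of 9 subunits was called, Itgav, whose diet difference grew by 1.44 on the log2 scale (SE 0.37, limma adjusted p = 0.0259), while 2.81% of all genes were called higher and 1.67% lower. The call was lost without CD mouse 3 at 20 weeks (1.34, adjusted p = 0.0566) or HFD mouse 5 at 20 weeks (1.37, adjusted p = 0.0508), and held in the alternatives with all mice (0.00852 to 0.0416). Itga5 changed by 1.55 (SE 0.63, adjusted p = 0.117, 95% interval 0.27 to 2.83) and Itga6 by -0.56 (SE 0.24, adjusted p = 0.127) without a call. From 8 to 34 weeks 2 laminin receptor genes were called, whose diet difference fell by 1.00 for Itga3 (SE 0.26, adjusted p = 0.00434) and changed by -1.02 for Itga6 (SE 0.23, adjusted p = 0.00128), where 13.0% of all genes were called higher and 15.9% lower. Both were called in every alternative with all mice and with any 1 mouse left out. Itgav joined them without CD mouse 5 at 34 weeks (0.87, adjusted p = 0.0439). From 20 to 34 weeks 1 subunit was called, Itga3 at -0.80 (SE 0.26, adjusted p = 0.0439), with 4.22% of all genes called higher and 6.31% lower. That call was lost when any 1 of 16 mice was left out and in 4 of 8 alternatives. In the fit without a filter Itgb3 was called in none of these comparisons. It changed by 1.03 from 8 to 20 weeks (limma adjusted p = 0.108) and by 0.68 from 8 to 34 weeks (adjusted p = 0.192). From 20 to 34 weeks it changed by -0.35 (adjusted p = 0.626).

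Time on diet was then compared within each diet, where age and time on diet are the same thing. The comparisons with 8 weeks share the mice of that time. In CD mice 0 of 9 subunits were called between 20 and 8 weeks by limma, 3 at an unadjusted p under 0.05 (Itga3 and Itga5 higher, Itgb5 lower), 1 by edgeR and 2 by DESeq2, while 1.70% of all genes were called higher and 1.88% lower. Between 34 and 8 weeks 3 subunits were called higher, with 40.1% of all genes higher and 24.6% lower. Itga3 was 0.92 higher (SE 0.18, limma adjusted p = 4.52e-05), Itgb1 0.32 (SE 0.12, adjusted p = 0.0223) and Itgb5 0.31 (SE 0.12, adjusted p = 0.0271). The median of all genes was 0.13 in this comparison and 0.01 with TMM factors, with which Itgb1 (0.19, adjusted p = 0.09) and Itgb5 (0.18, adjusted p = 0.165) were not called, in a range of 0.0223 to 0.755 and 0.027 to 0.216 over all alternatives. Itgb1 also lost its call without any 1 of CD mouse 3 at 8 weeks or CD mice 1 and 5 at 34 weeks (0.26 to 0.29), and Itgb5 without any 1 of CD mice 3, 5 and 6 at 8 weeks or CD mice 1 and 7 at 34 weeks (0.26 to 0.28). TMM split the calls over all genes into 3267 higher and 3294 lower, in place of 4151 and 2545. In the fit without a filter Itgb3 was not called in CD mice. It was at 0.26 (limma adjusted p = 0.761) at 20 and 0.56 (adjusted p = 0.0573) at 34 against 8 weeks.

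In HFD mice 3 of the 9 subunits tested were called higher and 1 lower at 20 against 8 weeks, with 21.2% and 15.3% of all genes. Itga5 was 2.68 higher (SE 0.45, limma adjusted p = 6.41e-05), Itgav 1.94 (SE 0.26, adjusted p = 5.74e-06) and Itga9 1.18 (SE 0.38, adjusted p = 0.0155), and Itga6 was lower at -0.73 (SE 0.17, adjusted p = 0.00128). At 34 against 8 weeks 1 of the 9 was higher, Itga9 at 1.35 (SE 0.38, adjusted p = 0.00336), and 3 were lower, with 31.7% and 20.8% of all genes. The lower ones were Itga1 at -0.86 (SE 0.23, adjusted p = 0.00228), Itga6 at -0.68 (SE 0.17, adjusted p = 0.00101) and Itga7 at -0.62 (SE 0.24, adjusted p = 0.0273). Itga7 lost this call without any 1 of HFD mice 3 and 4 at 8 weeks or HFD mice 3 and 4 at 34 weeks (-0.58 to -0.44), and with the macrophage covariate neither it (-0.30, adjusted p = 0.482, range 0.00865 to 0.482) nor Itga9 (-0.22, adjusted p = 0.513, range 0.00445 to 0.513) was called. For Itga9 at 20 weeks the covariate gave -0.05 (adjusted p = 0.92, range 0.0146 to 0.92). Itgb1 and Itgb5 were not called in either of these comparisons. In the fit without a filter Itgb3 was called higher in both. It was at 1.29 (SE 0.25, limma adjusted p = 0.000452) at 20 and 1.24 (SE 0.25, adjusted p = 0.000226) at 34 against 8 weeks. Of the 21166 genes of that fit, 2747 and 4117 were called higher.

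Markers of other cells moved in response to HFD as well. Beside the counts here and in the next paragraph stand the shares of all genes tested at 8, 20 and 34 weeks. Of these genes 29.8%, 38.3% and 27.5% were called higher and 15.1%, 18.7% and 15.7% lower. Whether a marker list differed from these shares was not tested. Of the 11 macrophage markers tested 6, 7 and 9 were called higher at 8, 20 and 34 weeks, with a median log2 fold change of 1.50, 2.13 and 1.65, and 1 was called lower at 20 weeks. Summed, they ranged from 451 to 1747 CPM in CD and 1146 to 3148 in HFD mice at 8 weeks, from 1067 to 3440 and 4464 to 9076 at 20 weeks, and from 1214 to 12721 and 5148 to 15474 at 34 weeks. None of the 11 was at 0 in any mouse. All 8 markers of lipid-associated macrophages were called higher at 8 and 20 weeks and 7 at 34 weeks, with sums of 158 to 281 and 494 to 2490, 153 to 1722 and 3569 to 10311, and 607 to 4464 and 3730 to 10923 CPM. The 9 endothelial markers gave 9, 7 and 8 calls, with sums of 31.1 to 294 in CD and 90.3 to 456 in HFD mice at 8 weeks, 52.5 to 193 and 185 to 500 at 20 weeks, and 57.7 to 182 and 122 to 501 at 34 weeks.

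Of the 6 progenitor and fibroblast markers tested 4, 6 and 4 were called higher. Summed over the list of 8, they ranged from 172 to 289 and 129 to 306 CPM at 8 weeks, 147 to 248 and 351 to 647 at 20 weeks, and 111 to 463 and 276 to 526 at 34 weeks, so that the diets overlapped at 8 and 34 weeks. Pi16 was at 0 in 2 mice. The 8 mural and smooth muscle markers gave 6, 6 and 3 calls, with sums of 121 to 262 and 187 to 571, 47.4 to 158 and 142 to 368, and 126 to 310 and 146 to 337 CPM. Of 9 adipocyte markers 1, 6 and 8 were called lower and 1, 1 and 0 higher. Of 3 mesothelial markers tested 2 were called higher at 8 weeks, and none of the T cell, B cell, Schwann cell or testis markers passed the filter. The part of these cells in the subunit values was not tested. The covariate held macrophage markers only and does not cover the other cells listed. Its mean also differed between the diets, so with it cell content and diet cannot be told apart.

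Across the 38 mice the subunits followed the macrophage markers to different degrees. The mean of log2(CPM + 1) of the 11 markers correlated with Itga9 at r = 0.89, and at 0.89 after the group means were removed. For Itgb3 r was 0.82 and 0.56, for Itgb1 0.76 and 0.68, for Itga5 0.65 and 0.73, and for Itgav 0.58 and 0.65. Itgb5 gave 0.52 and 0.15 and Itga3 0.50 and -0.07, so for these the value fell once group means were removed. Itga1 (-0.04 and 0.00), Itga6 (-0.05 and -0.07) and Itga7 (-0.45 and -0.30) had values near or under 0. Other lists gave values as high or higher. The lipid-associated macrophage markers gave 0.90 and 0.70 for Itgb3, 0.89 and 0.78 for Itgb1, 0.63 and 0.79 for Itga5, and 0.74 and 0.41 for Itgb5. The progenitor and fibroblast markers gave 0.89 and 0.67 for Itgb3, 0.88 and 0.77 for Itgb1, 0.82 and 0.71 for Itga5, and 0.79 and 0.61 for Itgav. With mural markers, r after removal of group means was highest for Itgb1, at 0.70, and Itga3, at 0.63. Itga1 gave 0.61 and 0.42 with the mural markers, Itga6 0.53 and 0.50, and Itga7 0.15 and 0.29. The endothelial markers gave 0.77 and 0.56 for Itgb1 and 0.64 and 0.43 for Itga5. With Itga1 they gave 0.42 and 0.16, with Itga6 0.25 and 0.29, and with Itga7 -0.15 and -0.15. The adipocyte markers ran against Itgb3 (-0.83 and -0.75), Itga9 (-0.80 and -0.67), Itga5 (-0.70 and -0.70), Itgav (-0.65 and -0.68), Itgb1 (-0.62 and -0.61) and Itgb5 (-0.43 and -0.34), and with Itga7 gave 0.58 and 0.57. These are descriptions over mice that share diet groups and fractionation.

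**Figure D4:**
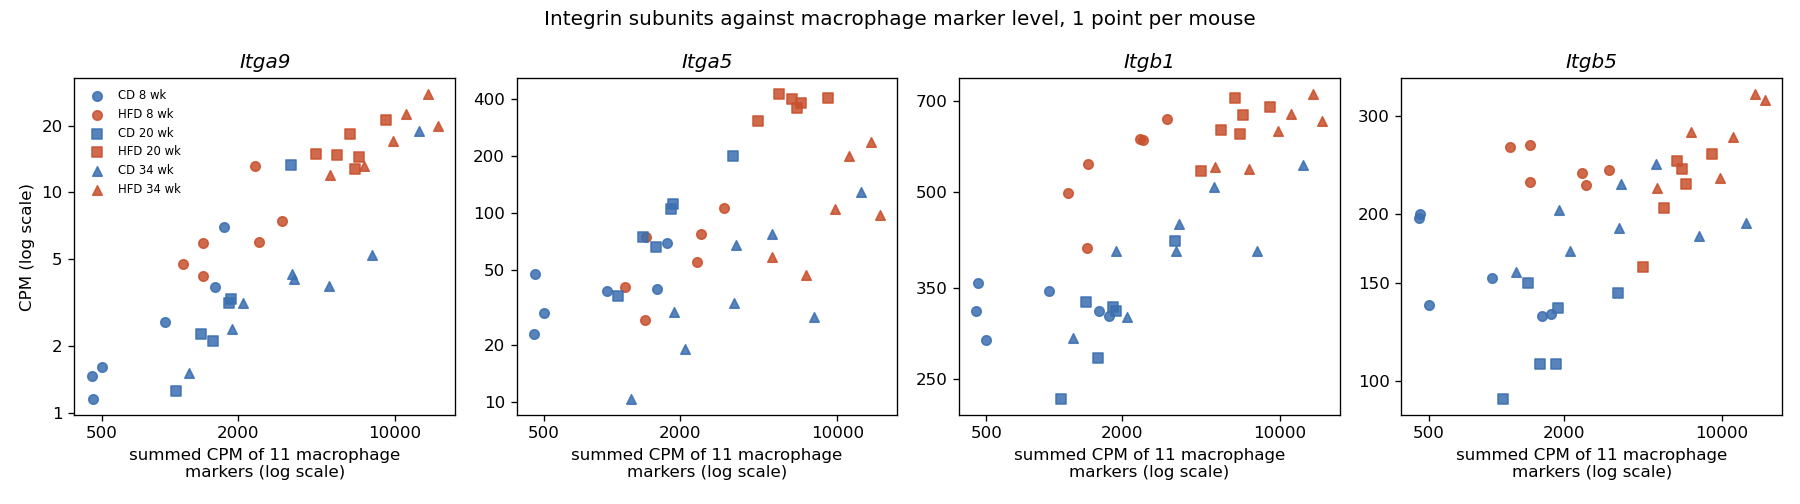
CPM of Itga9, Itga5, Itgb1 and Itgb5 (y axes, log scale) against the summed CPM of 11 macrophage markers (x axis, log scale), 1 point per mouse for all 38 mice (CD blue, HFD red, circles 8, squares 20 and triangles 34 weeks). Itga9 rises with the marker sum in both diets, and CD mouse 5 at 34 weeks, at 18.9 and 12721, lies among the HFD mice. At 8 weeks the HFD mice lie above the CD mice for Itgb5. The marker sums there are 451 to 1747 in CD and 1146 to 3148 in HFD mice and overlap only in part.

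Between subunits, the highest correlation over the 38 mice was that of Itga5 and Itgav, at r = 0.96 and 0.90 after removal of group means. Itga9 correlated with Itgb1 at 0.87 and 0.69 and with Itgb3 at 0.87 and 0.55, and Itgb1 with Itgb3 at 0.85 and 0.62 and with Itgb5 at 0.84 and 0.60. Itga7 ran against Itgb3, at -0.41 and -0.31.

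Outside the integrin genes, the genes most like each subunit in log2(CPM + 1) over the 38 mice were sought among 10064 genes. For Itga5 they were Plec, which encodes the cytoskeletal linker plectin (r = 0.97), Mdm2, the ligase that degrades p53 (0.96), and Gna13, a G protein subunit (0.96). After removal of group means these were 0.92, 0.94 and 0.91. Plec was also first for Itgav (0.95), followed by Zc3h12c (0.94) and the phosphatase gene Dusp7 (0.94), with 0.84, 0.85 and 0.89 without group means. Itga9 went with Bend4 and the macrophage scavenger receptor Msr1, each at 0.95, and 0.86 and 0.93 without group means. For Itgb1 they were Fam49a (0.97), the carrier Slc25a24 (0.96) and the myosin Myo10 (0.96), with 0.88, 0.88 and 0.86.

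Itgb5 was most like Rsu1, a component of the complex that links integrin tails to actin (r = 0.94), then Plekha2 (0.91) and Dusp3 (0.90), with 0.78, 0.68 and 0.56 without group means. For Itgb3 they were Stac2 (0.96), Serpinb9b (0.95) and Arhgap6 (0.95), with 0.81, 0.82 and 0.79. Itga3 had the lowest of the first places, with the protocadherin Pcdh1 (0.85), the thrombin receptor F2r (0.83) and Dpp4, a peptidase (0.83), and 0.70, 0.63 and 0.67 without group means. The 3 for Itga1 were the spectrin gene Sptbn1 (0.93), the calcium channel gene Itpr1 (0.92) and Phf8 (0.91), with 0.89, 0.91 and 0.84. Itga6 went with the basement membrane collagen Col15a1 (0.88), Golim4 (0.88) and Megf9 (0.87), with 0.81, 0.81 and 0.79, and Itga7 with Parp3 (0.88), the transcription factor Nfe2l1 (0.86) and the myosin kinase Mylk (0.84), with 0.89, 0.91 and 0.82.

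The ligands of these receptors were read from lists. For the counts of this list and all those that follow, the shares of all genes tested are the background. At 8, 20 and 34 weeks 29.8%, 38.3% and 27.5% of all genes were called higher and 15.1%, 18.7% and 15.7% lower. Whether a list differed from these shares was not tested. Of 11 collagen genes tested 8, 10 and 2 were called higher in HFD mice at the 3 times, and the others were not called, with a median log2 fold change of 1.52, 2.14 and 0.12. Col1a1, of fibrillar collagen, was at 2.55 (SE 0.55), 3.66 (SE 0.55) and 0.14 (SE 0.51, not called), and Col16a1, a fibril-associated collagen, at 3.74 (SE 0.57), 3.51 (SE 0.57) and 0.88 (SE 0.53, not called). The collagen VI genes Col6a3 and Col6a2 were at 2.49 (SE 0.35) and 2.37 (SE 0.38) at 20 weeks, and at 34 weeks Col6a3 was called at 1.11 and Col6a2 was at -0.27 without a call. Of 11 laminin and basement membrane genes 4, 5 and 1 were called higher and 1, 1 and 2 lower, with a median of 0.02, 0.28 and 0.01. These counts were near or under the shares of all genes. Lama2 was called at 1.48, 3.01 and 1.99 and Lamb1 lower at -0.42, -0.49 and -0.49, whereas Lama5 (1.70), Lama3 (1.53) and Lamb3 (1.19) were called at 20 weeks and not at 34 weeks.

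Of 13 glycoprotein ligand genes, most of them with an RGD site, 7, 8 and 3 were called higher and 2, 1 and 0 lower. The median was 1.00, 1.99 and 0.83. Spp1, which encodes osteopontin, a ligand of Itgav and Itga9, was at 2.14 (SE 0.82, limma adjusted p = 0.0319), 4.95 (SE 0.82, adjusted p = 6.06e-06) and 1.16 (SE 0.76, adjusted p = 0.218). The fibrillin gene Fbn1 was called at 2.44, 3.57 and 1.32 and the periostin gene Postn at 2.02, 2.86 and 1.57. Mfge8 was called at 1.84 and 2.41 and was at 0.52 without a call at 34 weeks. Vtn, which encodes the vitronectin bound by Itgb5, was lower at -1.49 (SE 0.28, adjusted p = 0.000109) and -0.69 (SE 0.28, adjusted p = 0.0342), and was at 0.07 at 34 weeks (adjusted p = 0.851).

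Inside the cell, of 8 integrin activators tested 5, 6 and 4 were called higher and 0, 1 and 0 lower, with a median of 0.59, 1.03 and 0.54. Tln1, the talin gene, was at 0.50 (SE 0.21, limma adjusted p = 0.0467), 1.48 (SE 0.21, adjusted p = 5.83e-07) and 1.13 (SE 0.19, adjusted p = 6.62e-05). The kindlin genes went apart, since Fermt3, of blood cells, was called higher at 1.57, 2.81 and 1.76, and Fermt2, of most other cells, was at -0.25, -0.45 (called lower, adjusted p = 0.0359) and -0.31. Apbb1ip was called at 2.01 and 1.55 at 20 and 34 weeks, and Rasgrp2 at 0.93 and 1.07 at 8 and 20 weeks. Of 6 inhibitors tested 3, 4 and 4 were called higher and 0, 1 and 1 lower. Tns3 (1.69, 2.60 and 1.74), Dok1 (1.29, 2.32 and 1.01) and the filamin gene Flna (0.90, 2.15 and 1.30) were called at every time, and Itgb1bp1, whose product binds the Itgb1 tail, was lower at 20 and 34 weeks (-0.92 and -0.91).

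Of 13 adhesion adaptors tested 6, 10 and 6 were called higher and 0, 0 and 1 lower, with a median of 0.23, 0.65 and 0.19. The alpha-actinin gene Actn1 was called at 1.22, 2.39 and 1.55 and Parvb at 1.17, 2.07 and 1.41. Tgfb1i1 was called at 1.22 and 1.03 and was at 0.02 at 34 weeks, Zyx was called at 0.90 and 0.65 at 20 and 34 weeks, and Bcar1 was lower at 34 weeks (-0.82). Of 8 adhesion kinases 5, 7 and 5 were called higher and the others not called, with a median of 0.46, 1.00 and 0.51. Fyn (1.52, 3.05 and 1.92), Pak1 (1.28, 2.79 and 2.19) and Csk (0.75, 1.40 and 0.76) were called at every time. Src was called at 0.47 and 1.85 at 8 and 20 weeks and was at -0.20 at 34 weeks (limma adjusted p = 0.364).

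Of the other integrin subunits only Itga4 of 9 passed the filter, and it was called at 1.63 (SE 0.48), 3.44 (SE 0.48) and 1.66 (SE 0.45). Of 6 leukocyte subunits tested 5 were called higher at each time, with a median of 1.77, 3.16 and 2.08, against 0.65, 0.86 and 0.50 for the matrix-binding ones, a difference that was not tested. Itgax, the CD11c gene of macrophages and dendritic cells, was at 2.86 (SE 0.66), 5.15 (SE 0.66) and 4.08 (SE 0.62). Itgad (4.72), Itgb2 (3.57) and Itgam (2.75) were called at 20 weeks and at the other times, and Itgae, a chain of lymphocytes and dendritic cells, was lower at 20 and 34 weeks (-1.46 and -1.13).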

How the data were processed

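The values deposited by the authors are CPM, 1 column per mouse, in which the 3 technical replicates of each mouse (114 labelled samples) had been merged. According to the methods, reads were aligned to mm10 with STAR and assigned by featureCounts to merged exons (GENCODE vM2), TMM was applied in edgeR, and genes without an Entrez identifier were discarded. Each column sums to 1000000, so no TMM factor is visible, although the plan had taken the values for TMM-scaled CPM. All values (100.0%) were whole multiples of 1 read within 0.1 reads, and the whole reads so recovered, 9275711 to 15480388 per mouse with a median of 12522298, were used where a test needs counts. This precision covers counting error only, as PCR copies of a molecule could not be told from other reads.

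Genes with a mean log2(CPM + 1) above 2.0 (10343) were fitted with limma 3.58.1 in R 4.3.3, all 6 groups together (32 residual degrees of freedom), with the trend of the empirical Bayes step, two-sided, Benjamini-Hochberg adjusted. The fit was tested on simulated data. The genes, lists and tests were chosen with earlier results of these data known. Alternatives were another pseudocount (0.25), no filter, TMM, median-of-ratios, edgeR 4.0.16, DESeq2 1.42.0, the mouse number as a block, each time alone, a macrophage covariate and leaving out each mouse. Named were all 10 subunits, from each list the first 4 called genes by size of change at 20 weeks and the largest opposite one, and the 3 genes most like each subunit, of which 1 is not reported here. Levels between genes are per kilobase of the exon union of GENCODE vM21. 1 of 12 macrophage markers and 1 of 7 inhibitors were not matched. Mice of a group are separate animals, and the SVF libraries were not analysed here.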

Additional observations from a re-analysis of the deposited data

Results flagged for a closer look

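In 5 of the 60 sets of 1 subunit in 1 group a single mouse lay far from the others, where chance gives about 1 in 20, or 3. Itga9 was at 13.3 CPM in CD mouse 1 at 20 weeks, with 1.25 to 3.28 in the other 5, and at 18.9 CPM in CD mouse 5 at 34 weeks, with 1.52 to 5.17 in the other 7. These mice also had the highest macrophage marker sums of their groups (3440 and 12721 CPM) and the lowest adipocyte marker sums (28626 and 27298 CPM). Itgav was at 45.1 CPM in CD mouse 6 at 8 weeks, the CD mouse with the highest macrophage sum at that time (1747 CPM), with 32.9 to 36.5 in the others. Itga1 was low in HFD mouse 4 at 34 weeks, at 21.8 CPM with 33.2 to 40.4 in the others, and this mouse too had the highest macrophage sum of its group (15474 CPM, with 14051 in the next). Itga3 was low in HFD mouse 2 at 8 weeks, at 3.26 CPM with 4.65 to 5.31 in the others, in the mouse with the highest adipocyte marker sum of its group (39246 CPM) and a macrophage sum of 1403 CPM.

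The diet difference itself differed between times for 3 subunits by an interaction term of limma. For Itgav it was larger by 1.44 at 20 than at 8 weeks (adjusted p = 0.0259), where 2.81% of all genes were called higher and 1.67% lower. The Itgav call was lost without either of 2 mice. From 8 to 34 weeks the diet difference fell by 1.00 for Itga3 (adjusted p = 0.00434) and changed by -1.02 for Itga6 (adjusted p = 0.00128). Of all genes 13.0% were called higher and 15.9% lower there. From 20 to 34 weeks it changed by -0.80 for Itga3 (adjusted p = 0.0439), with 4.22% of all genes called higher and 6.31% lower. That last call was lost when any 1 of 16 mice was left out.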

How the results depend on the processing

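Of 860 values recomputed with all mice, 755 kept their direction and side of the threshold or stayed close to the value given, and of 3838 with 1 mouse left out 3737 did. Where a cause is not named, the cause was not tested. The count of subunits called at 34 against 20 weeks in the diet difference fell from 1 to 0 with a pseudocount of 0.25, without a filter, with TMM and with the replicate block. For CD mice at 20 against 8 weeks it went from 0 to 1 with a pseudocount of 0.25, TMM, median-of-ratios, edgeR, the block and the macrophage covariate, and to 2 with DESeq2. For CD mice at 34 against 8 weeks it fell from 3 to 1 with edgeR. The macrophage covariate gave 3 in place of 5 calls for HFD against CD at 34 weeks and 2 in place of 4 for HFD mice at 34 against 8 weeks. Leaving out 1 mouse, the first and second of these counts lay between 0 and 1 and the third between 1 (without CD mouse 3 at 8 weeks) and 4. The count for the diet difference at 20 against 8 weeks lay between 0 and 1, and that of subunits without overlap at 34 weeks between 0 and 3. Shares of all genes are not given beside the counts of these refits, so a changed count cannot be read as particular to the subunits.

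Some values changed sign. For Itga6 at 20 weeks TMM gave -0.02 and edgeR -0.01. For Itga3 at 34 weeks TMM and median-of-ratios gave -0.07, edgeR -0.16 and DESeq2 -0.15, and leaving out 1 mouse -0.10 to 0.09. For Itga1 in the diet difference at 20 against 8 weeks TMM gave -0.07, median-of-ratios -0.01 and edgeR -0.02, and leaving out 1 mouse -0.04 to 0.14. For Itga5 in CD mice at 34 against 8 weeks edgeR gave 0.10 and DESeq2 0.12, and leaving out 1 mouse -0.30 to 0.21. Leaving out 1 mouse also gave -0.31 to 0.03 for Itga7 at 34 weeks, -0.48 to 0.15 for Itga9 in the diet difference at 34 against 20 weeks, and in CD mice at 20 against 8 weeks -0.01 to 0.18 for Itga7, -0.08 to 0.51 for Itga9 and -0.14 to 0.03 for Itgb1. The replicate block gave 0.03 for Itga7 at 34 weeks.

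With the macrophage covariate Itga5 and Itgav were at -0.29 and -0.12 at 8 weeks, Itga7 at 0.06 at 34 weeks and Itga9 at 0.14 in the diet difference at 34 against 20 weeks. In CD mice Itga9 was at -0.55 at 20 against 8 weeks, and at 34 against 8 weeks Itga9 was at -0.86, Itga7 at 0.07 and Itgb1 at -0.05. In HFD mice Itga9 and Itgb1 were at -0.05 and -0.10 at 20 against 8 weeks, and Itga5, Itga9, Itgav and Itgb1 at -0.67, -0.22, -0.36 and -0.22 at 34 against 8 weeks. The marker mean itself differed between the diets, so the covariate takes up part of the diet difference.

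With the coding length the share of Itgb1 was 72% and 74% in CD and HFD mice at 20 weeks and 67.6% and 69.2% at 34 weeks. Itga5 held 7.27% and 7.89% at 8 and 14.5% and 36.7% at 20 weeks, Itga6 31%, 13.9% and 23.2% in HFD mice at 8, 20 and 34 weeks, Itga7 46.3% in HFD mice at 8 weeks, and Itgav 6.65% and 6.17% at 8, 8.55% and 18.1% at 20 and, in HFD mice, 10.8% at 34 weeks.

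The mouse numbers were not taken to pair the mice. Over 18 pairs with the same number at the same time the correlation of their deviations from the group means ran from -0.51 to 0.53, was over 0.1 in 8, and was the best of its mouse in 2. Beyond the counts and the sign above, the block added calls for Itga1 at 34 weeks (0.50, adjusted p = 0.0482), and in CD mice for Itga3 at 20 against 8 weeks (0.63) and Itga1 at 34 against 8 weeks (-0.71), where it lost Itgb1 (0.31) and Itgb5 (0.28). Fitted at its own time, Itga5 at 34 weeks was not called (1.45, adjusted p = 0.0542) and Itgav at 8 weeks was (0.33, adjusted p = 0.0275). Depth limits Itgb3, with 1 to 4 reads per CD mouse at 8 weeks.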
